A study of Mus musculus with 4 samples.

Results

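The genes most strongly reduced in UBXN9-overexpressing liver cancer cells were a set of 53, taken from 10823 annotated genes that were read at a level of 2 CPM or more in both control libraries. A gene belonged to the set when the higher of its UBXN9 libraries lay at or below 0.25 of the lower control library, which is at least 4-fold lower. CPM is the count of a gene per 1000000 counts of its library. Unannotated loci and 10 genes named in the rule were left out of the choice, and 4 of those 10 (Exosc6, Krt18, Slc16a3 and Wnt5a) met the same limits. The 53 genes were 0.49% of the genes at that control level. Because the difference between the groups chose them, it is described here without a test.

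RNA came from LPC-HRas, an established mouse liver cancer cell line, grown without stimulation. The groups were control cells and cells overexpressing UBXN9, with 2 libraries each, and the libraries held 21814969 to 26292686 counts. Whether the overexpressing cells were a clone or a pool, and whether libraries came from separate cultures, is not given in the sources used here, so the p-values of other genes below measure only the spread between these libraries. With 2 libraries against 2, an exact permutation test cannot give a two-sided p under 0.333, so the tests are edgeR's quasi-likelihood test over all 13230 genes that passed a filter on low counts, with Benjamini-Hochberg adjustment. UBXN9 is the product of Aspscr1, a cofactor of the unfolding enzyme VCP that is best known for holding glucose transporter vesicles inside fat and muscle cells. Aspscr1 was read at 97.8 and 115 CPM in the controls and at 361 and 383 CPM in the UBXN9 libraries, 3.72-fold higher (log2 1.90, SE 0.18, adjusted p = 0.00144).

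The labelled cell type was checked against markers. Of 10 hepatocyte markers, Alb, Serpina1a, Fgb and Tat were at 0 in all 4 libraries and the 10 together summed to 1.93 to 2.80 CPM. Sox9, a transcription factor of bile duct and progenitor cells, was read at 174 to 210 CPM and Spp1, the secreted protein osteopontin, at 2187 to 3017 CPM. Other markers of that list were not: Prom1 was at 0 in all 4 libraries, and Epcam and Krt7 reached at most 0.183 and 0.138 CPM. The cells thus carried part of the biliary and progenitor markers and almost no hepatocyte markers. Stellate and fibroblast markers summed to 217 to 447 CPM, of which Pdgfrb, the receptor for platelet-derived growth factor, was 161 to 242 CPM, and myeloid markers to 56.8 to 68.3 CPM, mostly Cd14. Lymphoid markers summed to at most 0.138 CPM and endothelial markers to at most 7.80 CPM.

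The 53 genes did not belong to 1 pathway. Sorted by known role, they held 4 secreted ligands or carriers, 6 receptors and surface proteins, 5 adhesion proteins, 4 matrix proteins or sulfotransferases, 3 proteases, 5 proteins of ion and acid-base handling, 3 vesicle membrane proteins, 7 signalling or cytoskeletal proteins, 4 enzymes or proteins of lipid and small-molecule metabolism, 7 proteins of transcription or RNA binding, and 5 others. As background, surface receptors and secreted ligands set which signals a cell can send and hear, cadherin-linked junctions hold epithelial cells together, and carbonic anhydrases and proton pumps set the acidity around and inside cells. Adaptors such as STAC and phosphoinositide-dependent GTPase regulators such as ARAP3 link membrane lipids and channels to the cell interior. In bulk RNA, fewer cells expressing a gene and less RNA of it per cell cannot be told apart.

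**Figure D1:**
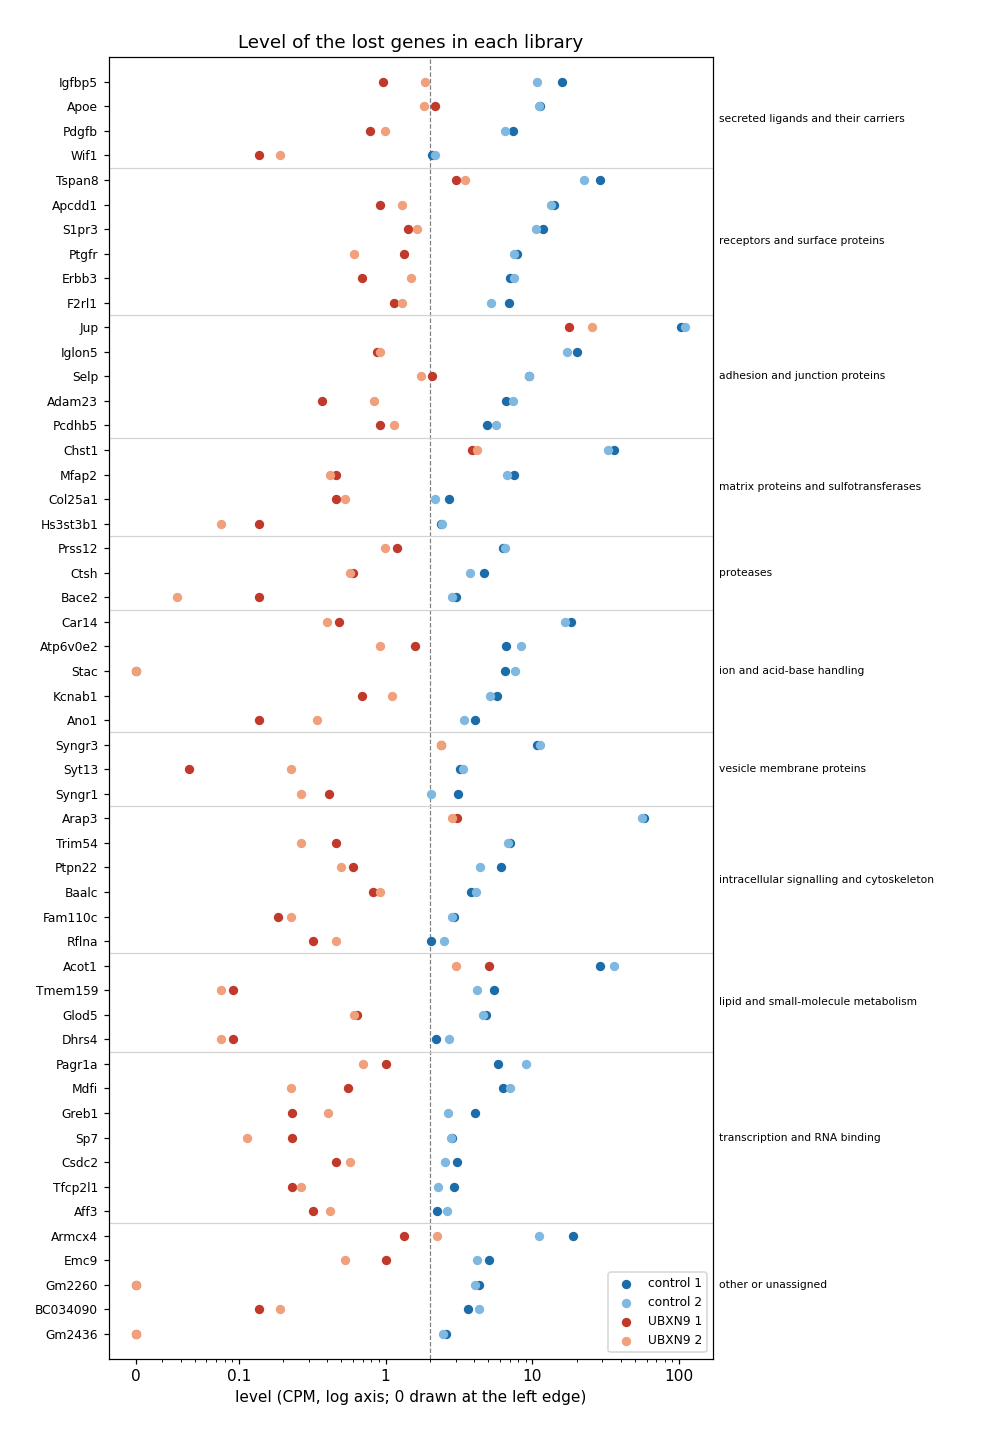
Level of each lost gene described here in each library (points, CPM on a log axis with 0 drawn at the left edge), grouped by role; the dashed line is the minimum of 2 CPM asked of both controls. The control points lie to the right of the UBXN9 points for every gene because the choice required it, and Stac, Gm2260 and Gm2436 sit at 0 in both UBXN9 libraries.

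Most were read at low levels on the CPM scale, which is not per length. The median control level was 6.04 CPM, against 34.1 CPM for the 10770 other genes at the same minimum, and 39 of the 53 had a mean control level under 10 CPM while 5 exceeded 20 CPM. In the UBXN9 libraries 35 had a mean under 1 CPM. Together the 53 genes summed to 573 and 554 CPM in the controls and to 66.6 and 73.9 CPM in the UBXN9 libraries. Reduction was 10-fold or more in 23 genes, including the 3 at 0, and between 4- and 10-fold in 30. The median was 8.21-fold over the 50 genes with counts in the UBXN9 libraries, and 8.48-fold over all 53 with the 3 at their bounds.

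Per kilobase of exon, the order of control levels was led by Jup (16.6 CPM per kb), Tspan8 (15.2) and Chst1 (12.8), and Col25a1 was lowest at 0.189 CPM per kb. The median exon length was 3761 bases, against 4526 bases in the other genes at the minimum. Protein-coding genes made up 96.2% of the set and 96.1% of the others.

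**Figure D2:**
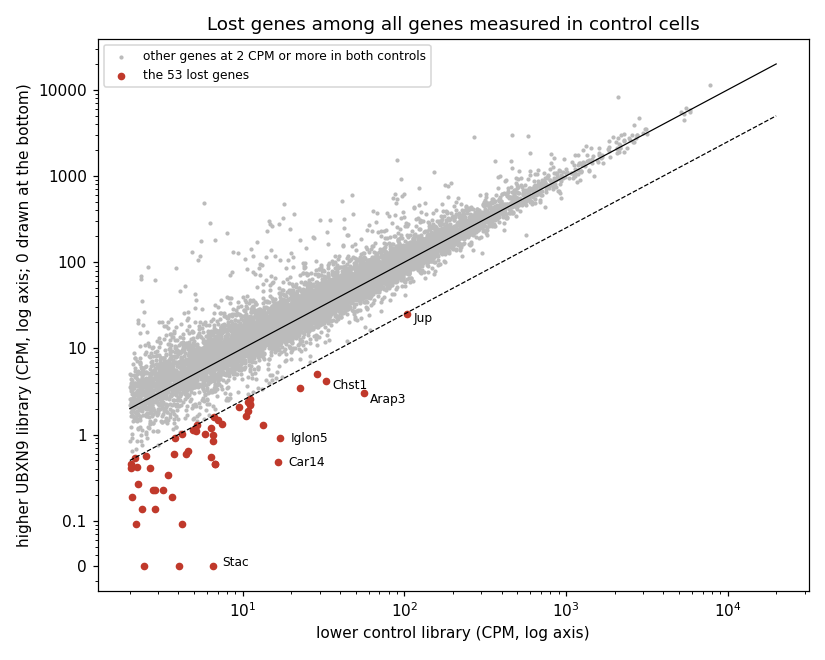
Higher UBXN9 library against lower control library for the 10823 annotated genes at 2 CPM or more in both controls, the excluded ones not drawn (log axes, CPM, 0 drawn at the bottom); the solid line is equality and the dashed line a ratio of 0.25. The 53 chosen genes are red and lie on or under the dashed line, mostly at low control levels, and Jup is the one above 100 CPM in both controls.

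Stac had the most control counts of the 3 genes with none in either UBXN9 library. It encodes an adaptor with SH3 and C1 domains that binds voltage-gated calcium channels, and it lies at chr9:111561437-111690348 (GRCm38, minus strand). It was read at 6.52 and 7.63 CPM in the controls. With both UBXN9 libraries together set to 3 counts, the upper limit taken for a count of 0, its level was 113-fold lower. The exact 95% counting interval of the ratio, which includes counting error in the controls, had a lower limit of 91.4-fold. The other 2, Gm2260 and Gm2436, are annotated as unprocessed pseudogenes. Gm2260 was read at 4.34 and 4.04 CPM in the controls (67.1-fold lower at 3 counts, lower limit of the interval 54.1). Gm2436 was read at 2.57 and 2.46 CPM there (40.8-fold lower at 3 counts, lower limit of the interval 32.6). Reads of a pseudogene can belong to its parent gene, so the values of Gm2260 and Gm2436 are uncertain. The bounds at 3 counts leave out counting error in the controls, and bounds and intervals alike cover counting error only.

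Arap3, whose mean control level was 7.13 CPM per kb, encodes a GTPase regulator. Its product is activated by the lipid PIP3, made by PI 3-kinase, and switches off the GTPases ARF6 and RHOA. It was read at 57.7 and 55.9 CPM in the controls and at 3.07 and 2.85 CPM in the UBXN9 libraries, 19.2-fold lower. Both libraries of each group lay close together.

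Car14 encodes a carbonic anhydrase anchored on the outer face of the plasma membrane, which interconverts carbon dioxide and bicarbonate. It lies at chr3:95897768-95904691 (minus strand) and was read at 18.4 and 16.6 CPM in the controls and at 0.478 and 0.399 CPM in the UBXN9 libraries, 39.9-fold lower. Car14 shares 521 bases with Aph1a, a gamma-secretase subunit on the opposite strand that was read at 124 to 155 CPM. The library kit does not mark strand, and how shared bases were counted is not given in the sources used here.

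Bace2, a membrane aspartyl protease related to the beta-secretase of the Alzheimer amyloid pathway, lies at chr16:97356742-97442936. It was read at 2.999 and 2.84 CPM in the controls and at 0.138 and 0.0380 CPM in the UBXN9 libraries, 33.3-fold lower. Only 4 counts underlie the UBXN9 level: the counting interval of the ratio ran from 13.4 to 131, and the fold was 76.8 without UBXN9 library 1 and 21.2 without UBXN9 library 2. Dhrs4, a peroxisomal short-chain dehydrogenase that reduces carbonyl compounds and retinal, lies at chr14:55478758-55490340. It was read at 2.19 and 2.71 CPM in the controls and at 0.0917 and 0.0761 CPM in the UBXN9 libraries, 29.2-fold lower, also on 4 counts (interval 11.1 to 109). Both genes were near the minimum in the controls and close to nothing in the UBXN9 cells.

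Promoters of 5 of these genes are shown because these genes were chosen for the same reduction and had a RefSeq promoter entry: Stac, Car14 and Dhrs4, at or near 0 in the UBXN9 libraries, and the adhesion genes Iglon5 and Jup, of which Jup kept 17.8 and 25.4 CPM there. Each line gives the 250 bases before the RefSeq start (GRCm38.p6), 5′ to 3′ on the strand of the gene; capitals mark matches to the motifs named after them. The windows are chr9:111690349-111690598 for Stac, chr3:95904686-95904935 for Car14, chr14:55478508-55478757 for Dhrs4, chr7:43490212-43490461 for Iglon5 and chr11:100397791-100398040 for Jup, all on the minus strand except Dhrs4.
Stac: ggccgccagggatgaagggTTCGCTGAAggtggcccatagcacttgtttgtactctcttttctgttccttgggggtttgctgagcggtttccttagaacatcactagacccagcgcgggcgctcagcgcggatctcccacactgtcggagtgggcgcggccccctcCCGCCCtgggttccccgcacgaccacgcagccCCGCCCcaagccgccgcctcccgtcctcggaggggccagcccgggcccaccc
Car14: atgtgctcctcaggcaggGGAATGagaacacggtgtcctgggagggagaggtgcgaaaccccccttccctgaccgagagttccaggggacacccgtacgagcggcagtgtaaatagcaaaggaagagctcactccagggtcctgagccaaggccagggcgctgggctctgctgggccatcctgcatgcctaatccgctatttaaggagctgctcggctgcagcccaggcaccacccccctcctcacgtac
Dhrs4: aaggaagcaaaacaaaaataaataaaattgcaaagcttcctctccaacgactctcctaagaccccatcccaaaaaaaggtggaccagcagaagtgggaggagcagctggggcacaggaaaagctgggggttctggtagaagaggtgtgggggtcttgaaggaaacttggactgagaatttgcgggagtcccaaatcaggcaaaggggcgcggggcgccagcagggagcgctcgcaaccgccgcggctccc
Iglon5: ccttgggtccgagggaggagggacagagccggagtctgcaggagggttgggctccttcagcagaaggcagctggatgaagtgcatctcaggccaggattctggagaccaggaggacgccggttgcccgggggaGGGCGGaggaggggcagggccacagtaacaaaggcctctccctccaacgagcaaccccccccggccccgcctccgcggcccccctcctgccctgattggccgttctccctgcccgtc
Jup: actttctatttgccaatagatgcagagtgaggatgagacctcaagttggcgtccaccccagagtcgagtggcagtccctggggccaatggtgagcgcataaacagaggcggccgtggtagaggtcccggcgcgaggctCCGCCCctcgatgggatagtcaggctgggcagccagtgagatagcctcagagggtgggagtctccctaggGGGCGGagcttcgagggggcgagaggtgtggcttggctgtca

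In these windows 9 motifs were searched on both strands, and none of them occurred in all 5. The motifs, with the share of all 20538 promoters of the same length that hold each, were the AP-1 site TGANTCA (6.43%), the core of the interferon-stimulated response element (2.97%), the STAT palindrome TTCNNNGAA (6.81%), the E-box CACGTG (6.40%), the TATA box TATAAA (12.2%), the TEAD site CATTCC (12.1%), the GC box GGGCGG (39.4%), the antioxidant response element TGACNNNGC (10.6%) and the NF-kB site (1.14%). No match of 1 motif overlapped a match of another in these windows. Stac held a STAT palindrome 231 to 223 bases before the start and GC boxes at 84 to 79 and 52 to 47 bases. Car14 held a TEAD match at 232 to 227 bases, Iglon5 a GC box at 117 to 112 bases, and Jup GC boxes at 112 to 107 and 42 to 37 bases. The Dhrs4 window held none of the 9. CG dinucleotides numbered 21 in Stac, 13 in Iglon5 and Jup, and 10 in Car14 and Dhrs4, against a median of 8 over all promoters. Starts differed between RefSeq and GENCODE by 136 bases for Iglon5, 27 for Jup, 6 for Car14 and none for Stac and Dhrs4. Only 35 of the 53 genes (66.0%) had a promoter entry, under the 80% needed, so no check over the whole set was made. The 18 with no entry included Apcdd1, Arap3, Baalc, Bace2, Csdc2, Ctsh, Erbb3, F2rl1, Glod5, Gm2260, Pcdhb5, Pdgfb, Rflna, Sp7, Syngr3, Syt13 and Tmem159.

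The 4 secreted factors were a growth factor chain, a growth factor binder, a WNT inhibitor and a lipid carrier. Igfbp5, which binds insulin-like growth factors outside cells, was read at 15.8 and 10.8 CPM in the controls and at 0.963 and 1.86 CPM in the UBXN9 libraries, 9.44-fold lower. Pdgfb, the B chain of platelet-derived growth factor, was read at 7.38 and 6.50 CPM in the controls and at 0.779 and 0.989 CPM in the UBXN9 libraries, 7.85-fold lower. Wif1, a secreted WNT inhibitor, was 12.9-fold lower and Apoe, the lipoprotein ligand, 5.59-fold lower. Wif1 was among the genes nearest above the 2 CPM minimum, at 2.07 and 2.17 CPM in the controls.

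Among the 6 receptors and surface proteins, Tspan8 had the highest control level per kilobase. Tspan8, a tetraspanin of epithelial tumour cells, was read at 29.0 and 22.6 CPM in the controls and at 3.03 and 3.46 CPM in the UBXN9 libraries, 7.95-fold lower. Apcdd1, a membrane protein that inhibits WNT signalling at the cell surface, was read at 14.02 and 13.4 CPM in the controls and at 0.917 and 1.29 CPM in the UBXN9 libraries, 12.4-fold lower. For both, the distance of the UBXN9 libraries from the controls follows from the choice and is not read as a result.

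The other 4 bind soluble ligands or are switched on by proteases. S1pr3, a receptor for the lipid sphingosine-1-phosphate, was 7.30-fold lower. Ptgfr, the prostaglandin F receptor, was 7.90-fold lower, 12.5-fold without UBXN9 library 1 and 5.77-fold without UBXN9 library 2. Erbb3, the member of the EGF receptor family that signals through its partners, was 6.68-fold lower. The Erbb3 fold was 4.89 without UBXN9 library 1 and 10.5 without UBXN9 library 2. F2rl1, the protease-activated receptor cut by trypsin-like enzymes, was 4.95-fold lower and stood just inside the limit.

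Jup had the highest control level of the set per kilobase. It encodes plakoglobin, a catenin of desmosomes and adherens junctions, and lies at chr11:100368958-100397763. It was read at 104 and 110 CPM in the controls and at 17.8 and 25.4 CPM in the UBXN9 libraries, 4.96-fold lower. At 3.35 CPM per kb, Jup also had the highest level of the 53 in the UBXN9 libraries. Iglon5, an immunoglobulin-like adhesion molecule held on the surface by a lipid anchor, was read at 20.2 and 17.1 CPM in the controls and at 0.871 and 0.913 CPM in the UBXN9 libraries, 20.9-fold lower. The other adhesion genes were Adam23, Pcdhb5 and Selp. Adam23, a disintegrin without protease activity, was 11.6-fold lower, 8.35-fold without UBXN9 library 1 and 19.0-fold without UBXN9 library 2. Pcdhb5, a clustered protocadherin, was 5.13-fold and Selp, the selectin of platelets and activated endothelium, 4.98-fold lower.

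Matrix genes included enzymes that sulfate sugar chains. Chst1, which adds sulfate to keratan sulfate, was read at 36.2 and 32.6 CPM in the controls and at 3.90 and 4.22 CPM in the UBXN9 libraries, 8.48-fold lower. Hs3st3b1, which sulfates heparan sulfate, was 22.6-fold lower. Mfap2, a microfibril protein, was 16.2-fold lower, and Col25a1, a collagen with a transmembrane segment, was 4.93-fold lower. Besides Bace2, the proteases were Ctsh, the lysosomal cathepsin H (7.24-fold lower), and Prss12, the secreted serine protease neurotrypsin (5.88-fold lower).

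Ion and acid-base genes beside Stac and Car14 were a channel, a channel subunit and a pump subunit. Ano1, a calcium-activated chloride channel, was 15.7-fold lower, and 27.4-fold without UBXN9 library 2. Kcnab1, a cytoplasmic subunit of potassium channels, was 6.09-fold lower, and Atp6v0e2, a membrane subunit of the vacuolar proton pump, 6.05-fold lower. Vesicle membrane genes were Syt13, an atypical synaptotagmin, and the synaptogyrins Syngr1 and Syngr3. Syt13 was 24.0-fold lower, but 71.9-fold without UBXN9 library 2 and 14.4-fold without UBXN9 library 1, since it was read at 0.0458 and 0.228 CPM there. Syngr1 was 7.59-fold and Syngr3 4.61-fold lower. Syngr1 shares 535 bases with Rpl3, a ribosomal protein gene on the opposite strand read at 2087 to 2735 CPM.

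Signalling and cytoskeletal genes beside Arap3 were lower by 4.58- to 19.1-fold. Trim54, a ubiquitin ligase that binds microtubules in muscle, was 19.1-fold lower. Fam110c was read at 2.92 and 2.84 CPM in the controls and at 0.183 and 0.228 CPM in the UBXN9 libraries. Ptpn22, a phosphatase that restrains lymphocyte signalling, was 9.67-fold lower. Rflna, a filamin-binding protein, was 5.80-fold and Baalc 4.58-fold lower.

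Lipid and small-molecule genes beside Dhrs4 were Acot1, Tmem159 and Glod5. Acot1, which releases free fatty acids from acyl-CoA in the cytosol, was read at 28.9 and 36.0 CPM in the controls and at 5.06 and 3.01 CPM in the UBXN9 libraries, 8.04-fold lower. Acot2, a near copy of Acot1, was read at 5.01 and 4.30 CPM in the controls and at 2.82 and 4.60 CPM in the UBXN9 libraries (log2 -0.24, adjusted p = 0.73). Reads shared by these copies could have been split between them, so the level of Acot1 is uncertain. Tmem159, which takes part in lipid droplet formation, was read at 5.47 and 4.20 CPM in the controls and at 0.0917 and 0.0761 CPM in the UBXN9 libraries, 57.6-fold lower on 4 counts (interval 22.6 to 217). Among genes with any UBXN9 count, Tmem159 had the highest fold. Glod5 was 7.57-fold lower.

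Transcription and RNA-binding genes were mostly rare. Mdfi, an inhibitor of MyoD-type factors, was 17.1-fold lower, 29.2-fold without UBXN9 library 1 and 12.1-fold without UBXN9 library 2. Sp7, the bone-forming cell factor osterix, was 16.4-fold lower, 24.7-fold without UBXN9 library 1 and 12.3-fold without UBXN9 library 2. Greb1, an oestrogen-induced gene, was 10.6-fold, Tfcp2l1, a factor of stem and kidney duct cells, 10.4-fold, Aff3 6.56-fold and Csdc2, an RNA-binding cold-shock protein, 5.45-fold lower. Pagr1a, a partner of histone methyltransferase complexes, was 8.76-fold lower. It overlaps its copy Pagr1b, which was read at 0 and 1.27 CPM in the controls and at 3.03 and 0.703 CPM in the UBXN9 libraries, and it shares 2302 bases on the same strand with Gm42742, read at 30.8 to 40.5 CPM. The value of Pagr1a is therefore uncertain.

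The remaining protein-coding genes were Armcx4, BC034090 and Emc9. Armcx4, an X-linked armadillo-repeat gene, was read at 18.8 and 11.2 CPM in the controls and at 1.33 and 2.24 CPM in the UBXN9 libraries, 8.38-fold lower. BC034090 was read at 3.65 and 4.33 CPM in the controls and at 0.138 and 0.190 CPM in the UBXN9 libraries, 24.4-fold lower. Emc9, a subunit of the complex that inserts membrane proteins in the endoplasmic reticulum, was 5.99-fold lower. Of the 53 genes, 28 overlap another annotated gene, and for 5 (Car14, Pagr1a, Prss12, Syngr1 and Emc9) that gene reached 1 CPM in some library.

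The edges of the set were not sharp. Nearest inside the fold limit were Jup, Col25a1 and F2rl1, with the higher UBXN9 library at 0.244, 0.246 and 0.249 of the lower control. Nearest outside were Paox (0.254), Arhgap29 (0.255) and Col7a1 (0.259). Rflna, Syngr1 and Wif1 were nearest above the control minimum, and Hgf, Rnf144b and Pnma2 met the fold limit just below it; Hgf, the hepatocyte growth factor, was read at 2.80 and 1.67 CPM in the controls and at 0.0917 and 0.190 CPM in the UBXN9 libraries. With CPM scaled by TMM factors, 44 genes met the limits, and those that did not included Atp6v0e2, Baalc, Emc9, Jup, Rflna, Selp, Syngr3 and Wif1.

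Reductions of this size were rarer than increases of the same size. By the mirrored limits, 165 of 10742 genes (1.54%) were at least 4-fold higher in the UBXN9 cells. No gene was left out of this count by name, while 4 of the 10 genes left out of the set met the limits for reduction. For comparison, both UBXN9 libraries lay below both controls for 36.1% of the genes at the control minimum. The edgeR test called 984 genes (7.44%), 669 of them higher (5.06%) and 315 lower (2.38%). It called all 53 chosen genes lower, which the choice itself makes likely and from which nothing is read.

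Control 1 was above control 2 for 32 of the 53 (60.4%) and for 64.2% of the others, and the median absolute difference of the controls was 0.16 on the log2 scale, against 0.17. Between the UBXN9 libraries it was 0.29 in the 53 genes and 0.27 in the others, on the log2(CPM + 0.1) scale, which shrinks the differences of genes near 0. UBXN9 library 1 was the higher for 23 genes and UBXN9 library 2 for 27, with 3 at 0 in both. By gene class, against 0.49% of all genes at the control minimum, none of 172 solute carrier genes, 243 zinc finger genes, 19 homeobox genes or 15 integrin genes was in the set. At that share, classes of this size would hold few of the 53 or none, so nothing is read from these counts. The class with the highest share was that of potassium channel genes, with Kcnab1 as 1 of 7. By chromosome, the share ran from 0 of 610 genes on chromosome 8 and 0 of 396 on chromosome 19 to 6 of 534 on chromosome 3 and 5 of 445 on chromosome 15 (1.12% each). Chromosome 1 held 6 of 616. With so few genes per chromosome, these shares are given as a description.

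Most relatives of the 53 genes did not pass the test. In 31 families picked by symbol after the set was known, 139 of 257 relatives passed the filter on low counts; 10 were called lower and 4 higher, and their median log2 fold change was -0.01, as over all genes tested. Of all genes tested, 2.38% were called lower and 5.06% higher. Calls among the relatives thus leaned lower, while those over all genes leaned higher, a difference that was not tested. Jup was chosen for its reduction, so a gap to its family follows from the choice. Of its 6 tested catenin and plakophilin relatives, 0 were called. Ctnnb1, the beta-catenin that shares the junction partners of Jup, was at log2 -0.08 (adjusted p = 0.847). Pkp4 was at 0.06, Pkp2 at 0.03 and Pkp3 at 0.95 (adjusted p = 0.194). Pkp1, at 6 and 5 counts in the controls and 0 in both UBXN9 libraries, was not tested. Of the relatives of Atp6v0e2, 0 of 15 proton pump subunits were called, and of those of Emc9, 0 of 8. S1pr2, at 110 and 112 CPM in the controls and 92.4 and 116 CPM in the UBXN9 libraries, showed a log2 fold change of -0.01 beside the loss of S1pr3.

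In the EGF receptor family, values differed in direction. Egfr was read at 43.2 and 33.5 CPM in the controls and at 69.5 and 92.9 CPM in the UBXN9 libraries, and was called higher (log2 1.17, SE 0.19, adjusted p = 0.0122, and 0.0961 without control library 2). Erbb2 was at log2 0.02 (adjusted p = 0.973), and Erbb4 was at 0 in all 4 libraries. Erbb3, as given above, was among the lost genes.

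WNT inhibitors beside Wif1 and Apcdd1 also went in both directions. Dkk2 was called lower (log2 -2.86, adjusted p = 0.0224), as was Dkk3 (log2 -1.34, adjusted p = 0.0205), while Notum, which removes the lipid from WNT proteins, was called higher (log2 2.25, adjusted p = 0.00531). The calls of Dkk2 and Dkk3 were lost without either control library, at adjusted p = 0.0549 to 0.209. Among insulin-like growth factor binders, Igfbp7 was called higher (log2 1.46, adjusted p = 0.0108, and 0.0517 without control library 2), while Igfbp4 (log2 -0.40) and Igfbp6 (log2 -0.65) were not called.

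The other relatives called lower were Kcnab3 (log2 -2.19), Ptpn6 (-1.70), Tspan7 (-1.64), Sp6 (-1.50), Syt7 (-1.38), Armcx1 (-1.29), Syt11 (-1.05) and Tspan14 (-0.69), and Fam110b (1.31) was called higher. Of these 9 genes, all but Tspan7 lost the call without at least 1 of the control libraries, at adjusted p = 0.0503 to 0.418. Neither Pdgfa (log2 -0.41), Pdgfc (-0.48) nor the receptors Pdgfra (0.34) and Pdgfrb (0.38) passed the test beside Pdgfb.

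**Figure D3:**
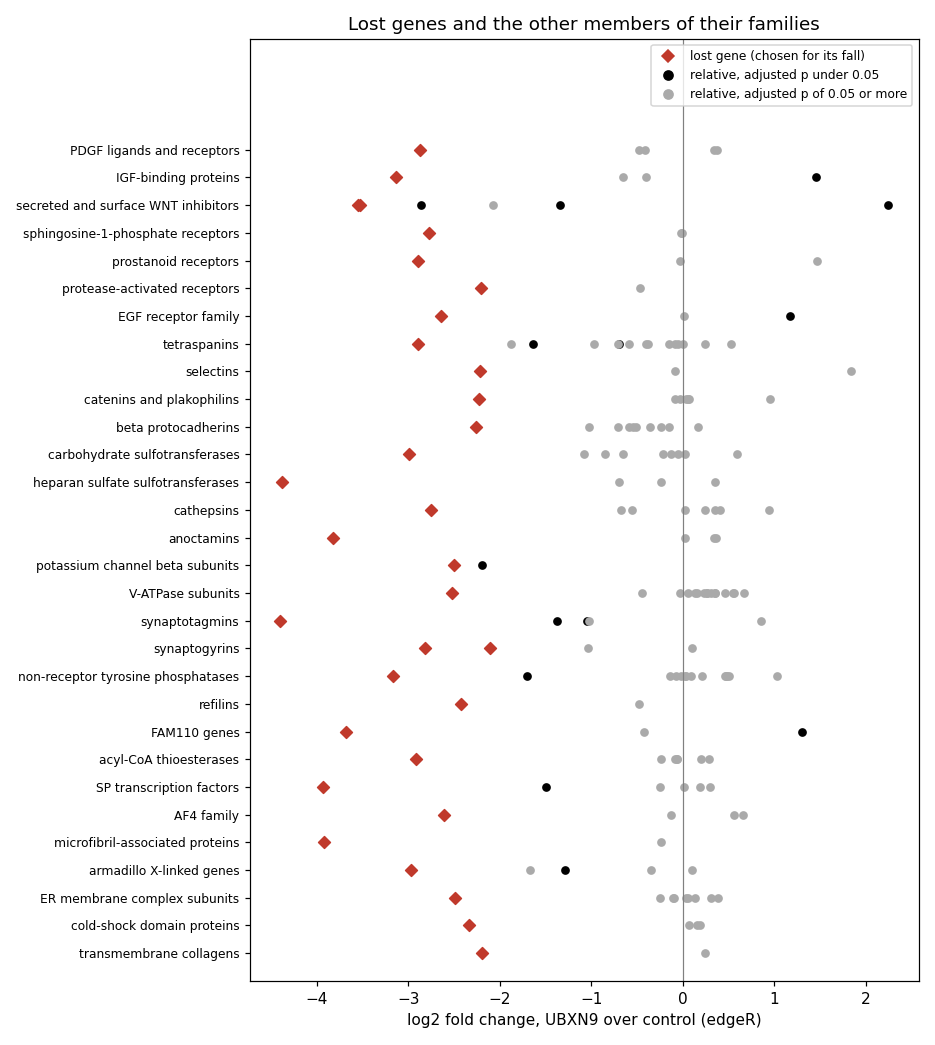
Log2 fold change of each tested gene of 30 families (edgeR, UBXN9 over control); red diamonds are the lost genes, chosen for their reduction, black points relatives with an adjusted p under 0.05, grey points the other relatives. The relatives centre near 0, with 10 black points below 0 and 4 above.

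In 7 pathway lists built around Stac, Arap3, Car14, Bace2 and Dhrs4, 11 of 124 other genes were called (8.87%, against 7.44% of all genes tested), 3 lower and 8 higher. That share is near the one over all genes. Among the other STAC and voltage-gated calcium channel genes, 1 of 9 was called, with a median log2 fold change of -0.51 against -0.01 over all genes. That gene was Cacna1g, a low-voltage-activated calcium channel, read at 7.54 and 5.91 CPM in the controls and at 1.05 and 1.94 CPM in the UBXN9 libraries (log2 -2.07, SE 0.35, adjusted p = 0.0146). Stac2, another STAC protein, was read at 32.3 and 33.2 CPM in the controls and at 19.8 and 27.3 CPM in the UBXN9 libraries (adjusted p = 0.294), and Cacna1c, a channel that STAC proteins bind, had an adjusted p of 0.141.

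For Arap3, 1 of 19 other ARF GTPase-activating genes was called, Asap3, which was higher (log2 1.50, adjusted p = 0.00784). Of 18 genes for PI 3-kinase subunits and PIP3 phosphatases, Pik3r5 was called higher (log2 1.13, adjusted p = 0.0499, 0.0833 with a replicate block, and 0.179 and 0.319 without control library 1 and 2). Neither list had a gene called lower beside Arap3.

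Around Car14, 2 of 13 genes were called, both higher. Car12, another carbonic anhydrase of the outer cell surface, was read at 4.01 and 3.34 CPM in the controls and at 14.1 and 13.3 CPM in the UBXN9 libraries (log2 2.00, SE 0.24, adjusted p = 0.00426). Car6, a secreted one, was at log2 1.74 (adjusted p = 0.0488, 0.137 by DESeq2, and 0.201 and 0.373 without control library 1 and 2). Car13, a cytosolic one, was at 92.6 and 78.7 CPM in the controls and at 125 and 112 CPM in the UBXN9 libraries (adjusted p = 0.1). Lower but not called were Slc9a3r1 (log2 -0.70, adjusted p = 0.0545), Car11 (-1.48, adjusted p = 0.119) and Car8 (-1.74, adjusted p = 0.233). The median log2 fold change of the 13 genes was 0.07.

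Around Bace2, 2 of 16 genes were called, both higher and both listed as substrates of secretases in general. App, the amyloid precursor protein, was read at 20.2 and 13.9 CPM in the controls and at 96.4 and 116 CPM in the UBXN9 libraries (log2 2.73, SE 0.21, adjusted p = 0.000629). Notch1 was at log2 1.26 (adjusted p = 0.0218, and 0.083 without control library 2). Bace1, the main beta-secretase, was read at 35.9 and 31.1 CPM in the controls and at 16.8 and 23.8 CPM in the UBXN9 libraries (log2 -0.64, adjusted p = 0.112), and none of the tested gamma-secretase subunits was called.

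Around Dhrs4, 3 of 19 genes of short-chain dehydrogenases and retinoid metabolism were called, 2 lower and 1 higher. Aldh1a3, which makes retinoic acid, was lower (log2 -1.96, adjusted p = 0.024, and 0.141 without control library 2). Cyp26a1, which degrades retinoic acid, was higher (log2 1.79, SE 0.27, adjusted p = 0.00972). Of 30 other peroxisome genes, Phyh alone was called, and it was higher (log2 1.95, adjusted p = 0.0318, 0.0563 by DESeq2, and 0.116 and 0.202 without control library 1 and 2).

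**Figure D4:**
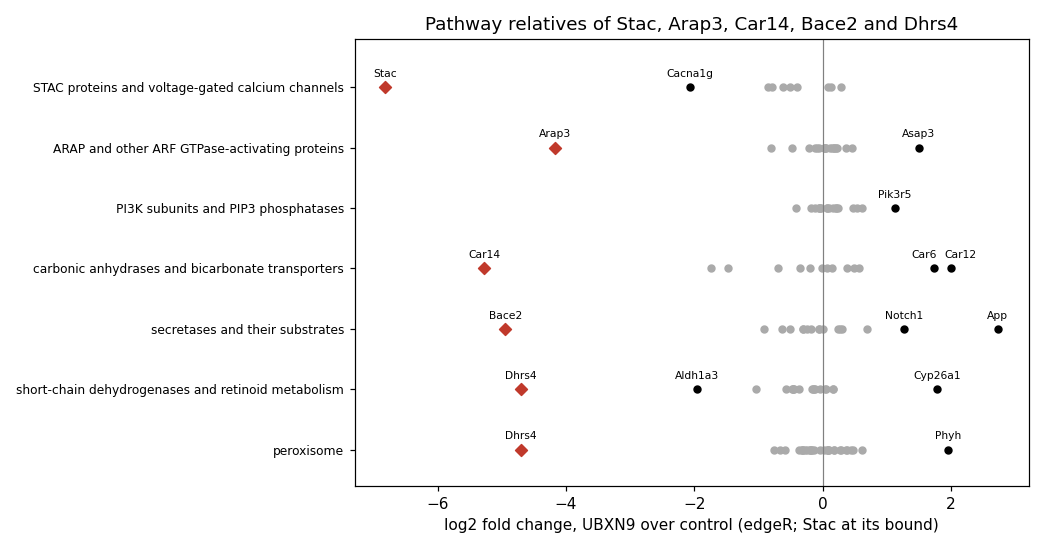
Log2 fold change (edgeR, UBXN9 over control) of the tested genes of 7 pathway lists described here; red diamonds are the lost genes, with Stac drawn at its bound of 3 counts, black points other genes with an adjusted p under 0.05, grey points the rest. App is the highest point at 2.73, and Cacna1g the lowest black point at -2.07.

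Markers of other cell types moved with the groups in part. Biliary and progenitor markers Krt18 (log2 -3.66), Krt19 (-1.69) and Cd24a (-1.05) were called lower, 3 of 7 tested, and all 3 are on the list of genes left out of the choice. Without control library 2, Krt19 (adjusted p = 0.143) and Cd24a (0.0523) were not called. Their list summed to 2431 to 2890 CPM in the controls and 2735 to 3257 CPM in the UBXN9 libraries, which is mostly Spp1. Stellate and fibroblast markers summed to 217 and 254 CPM in the controls and 341 and 447 CPM in the UBXN9 libraries, with Col1a1 (log2 2.20) and Acta2 (1.27) called higher, 2 of 7. Of 4 myeloid markers tested, Lyz2 was called higher (log2 1.82, adjusted p = 0.0408, and 0.283 without control library 2). Their part in the losses was not tested.

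Some lost genes lay near each other, with 4 pairs whose starts were within 1 Mb. Pdgfb and Syngr1 lay 95.5 kb apart on chromosome 15, and Rpl3, the one tested gene between them, was at log2 0.02. Dhrs4 and Emc9 lay 103 kb apart on chromosome 14; of 3 tested genes between them, Dcaf11 (-0.01) and Pck2 (0.11) were not called and Psme1, a proteasome activator subunit that shares 14 bases with Emc9, was higher (log2 1.07, adjusted p = 0.0191, and 0.108 without control library 1). Chst1 and Syt13 lay 315 kb apart on chromosome 2 with no tested gene between them.

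With 500 kb added on either side of each pair, the share of other tested genes that were called varied. In the Dhrs4 and Emc9 window, 8 of 26 were called (30.8%, against 7.44% of all genes), 3 lower and 5 higher. Lower were Nfatc4, a calcium-regulated transcription factor (log2 -2.05, adjusted p = 0.00175), Ap1g2, an adaptor subunit of vesicle transport (log2 -1.30, adjusted p = 0.00996, and 0.0667 without control library 2), and Nynrin, which fell to 1 count in each UBXN9 library (adjusted p = 0.0195, and 0.0563 by DESeq2). Higher beside Psme1 were the necroptosis kinase gene Ripk3 (log2 2.66), the proteasome activator gene Psme2 (1.24), Rnf31 (0.83), a subunit of the linear ubiquitin ligase, and Irf9 (0.71), an interferon response factor. Without either control library, Rnf31 and Irf9 were not called, at adjusted p = 0.17 to 0.443. In the Pdgfb and Syngr1 window, 2 of 23 were called, both lower: Mgat3 (log2 -1.12) and Nptxr (126 and 110 CPM in the controls, 45.8 and 65.5 CPM in the UBXN9 libraries), the latter at adjusted p = 0.0539 and 0.0613 without control library 1 and 2. The Chst1 and Syt13 window held 5 other tested genes, none of them called by edgeR. In the Pcdhb5 and Arap3 window, 3 of 40 were called (7.5%). Over all windows together, 13 of 94 were called (13.8%), 7 lower and 6 higher.

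Pcdhb5 and Arap3 lay 652 kb apart on chromosome 18, with the protocadherin clusters between them. Of 32 tested genes there, Pcdhgb6 (log2 -1.34) and Pcdhga5 (-0.87) were called lower and Pcdhgc5 (1.25) higher; without control library 2 none of these 3 was called (adjusted p = 0.0713, 0.172 and 0.218). Among beta protocadherins, 0 of 9 relatives of Pcdhb5 were called, with a median log2 fold change of -0.51. These clusters hold near-identical copies, so values of single members are uncertain. 

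**Figure D5:**
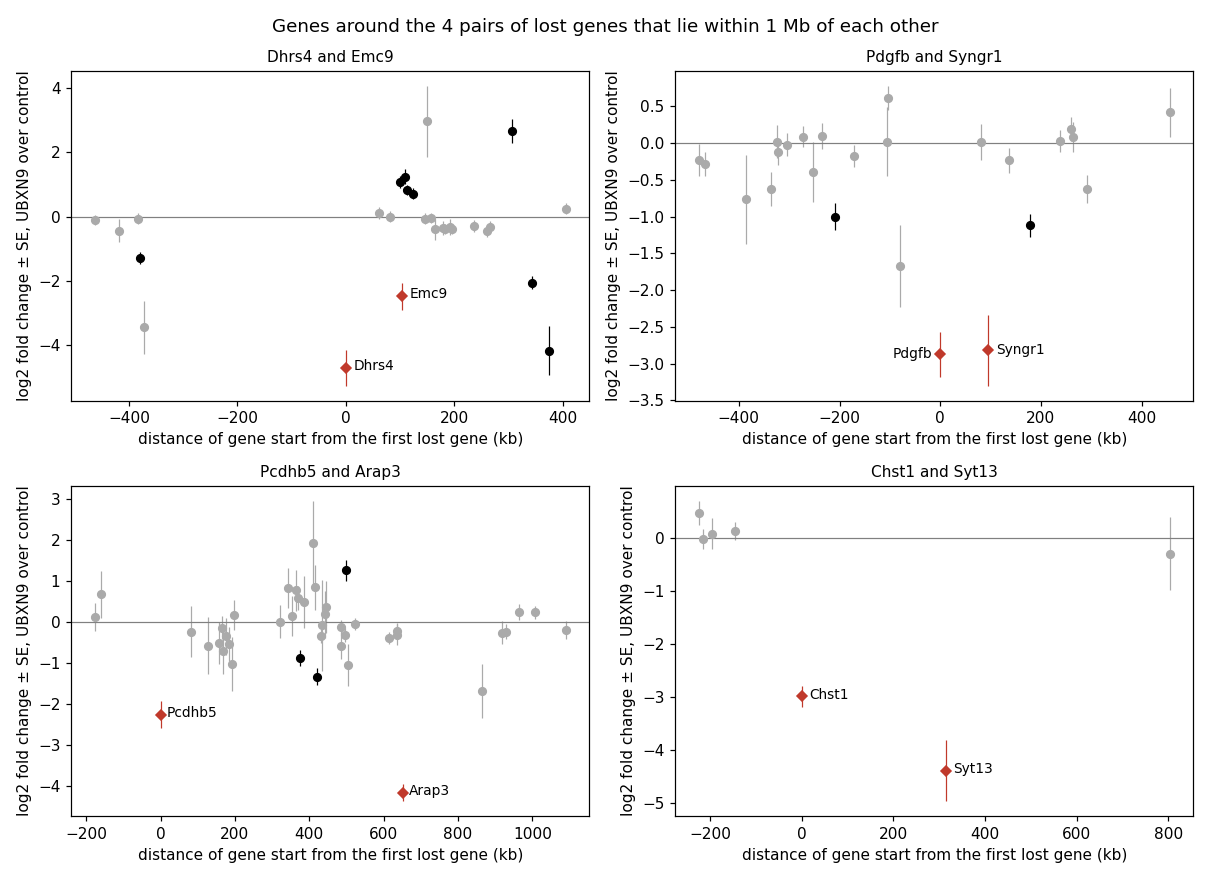
Log2 fold change (edgeR) of tested genes around the 4 pairs, against the distance of each start from the first gene of the pair (kb). Bars are the SE derived from the F statistic of the test. Red diamonds are the lost genes, black points other genes with an adjusted p under 0.05, grey points the rest. Rpl3 sits at 0.02 between Pdgfb and Syngr1, while 8 of the 26 other genes in the Dhrs4 and Emc9 window are black, on both sides of 0.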

How the data were processed

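The deposited table holds estimated counts per gene in 4 libraries, with no scaling by the authors; the submitters' processing notes name HISAT2 2.1.0, HTSeq and GRCm38.p6. Settings, annotation and strand handling are not given in the sources used here. Some values are fractions, so they were rounded to whole counts for the tests. The 241 unannotated loci stayed out of the tests but in the totals behind CPM. Of 55487 annotated identifiers, 55227 were in GENCODE M21, which gave positions and overlaps; promoters are from RefSeq.

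The groups were tested gene by gene in R 4.3.3 with edgeR 4.0.16 (TMM, filterByExpr, quasi-likelihood F test, two-sided, Benjamini-Hochberg over 13230 genes, adjusted p under 0.05), tested on simulated data. This edgeR test gives no standard error, so SE is the absolute log2 fold change divided by the square root of the F statistic. Alternatives were other normalization and filters, DESeq2 1.42.0, a replicate block, and leaving out each library. Figures used matplotlib 3.10.9. Named genes were Aspscr1, Stac, Arap3, Car14, Bace2 and Dhrs4, the 10 highest control means, the 10 smallest ratios, the genes at the limits, and up to 3 genes of smallest p per list; other members are named by role, and relatives and neighbours were named after their values were seen. The members and lists were chosen with earlier results of these data known, and roles and families after the members were known. A few genes are counted but not reported by name here, nor drawn in the plots by name.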

Additional observations from a re-analysis of the deposited data

How the results depend on the processing

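The set held 53 genes. A minimum of 5 CPM left 28, a ratio limit of 0.5 gave 216, one of 0.125 gave 21, a minimum of 1 CPM gave 67, and keeping unannotated loci added 3 loci for 56. Leaving out each library in turn gave 62 to 102, the highest without UBXN9 library 2. Leaving out a library can only loosen these limits, so all 53 had to be kept and nothing is read from that. Over all genes, 984 were called; there were 1827 without a filter on low counts (1144 higher, 683 lower), 1226 by DESeq2, and 508 to 2782 when each library was left out in turn, the lowest without control library 2. On the lists, 17 genes were called, and 8 to 36 when each library was left out. Of 45 named genes outside the set, 18 lost the call without control library 1, 29 without control library 2, 4 by DESeq2 and 5 with a replicate block, and none changed sign. The labels do not say that equal replicate numbers pair the libraries. With the numbers as a block, 932 genes and 15 list genes were called. Deviations of same-numbered libraries correlated at -0.373 over 13230 genes, so the crossed pairing was added after seeing the data; it called 3137 genes and 40 list genes. Folds that rest on few UBXN9 counts are imprecise, and genes under 2 CPM in a control could not enter the set.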
